A study of Mus musculus with 12 samples.

Results

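The macrophage and myeloid genes examined here are 38 genes that encode surface receptors, signalling adaptors, lysosomal enzymes and secreted proteins of macrophages and other myeloid cells. They are a list of names, with no threshold on a measured value, but they were chosen with earlier results of these data known. A gene was used where the array table held a probe set annotated with that gene's symbol alone, and this was so for 38 of 38, among 22180 genes with such a probe set. Each of the 38 had 1 such probe set. All 38 also passed the filter on dim probe sets (at least 2 arrays above 2.98, the lower quartile of the table on the log2 scale), so they are among the 20135 genes tested.

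The study hybridised RNA of sorted prostate cells to 12 arrays. The donors were hormone-naïve wild-type males, whose strain and age are not given in the sources used here. Before hybridisation the cells were sorted for absence of CD45, a protein of all leukocytes, of CD31, a protein of endothelial cells, and of Ter119, a protein of erythroid cells. Those that remained were divided by the surface proteins Sca1 and CD49f into a luminal gate (low for both), a Sca1-high gate (high Sca1, CD49f-positive) and a basal gate (intermediate Sca1, CD49f-positive), and each gate was divided into LY6D+ and LY6D- cells. This gave 6 groups with 2 arrays each. Mice 4 and 5 supplied the luminal gate, mice 1 and 5 the Sca1-high gate and mice 3 and 5 the basal gate, so mouse 5 gave a library to every group and each of the other mice to 1 gate. A gate mean is given ± SD over 4 libraries (n = 4) from 2 mice. The SE and p-values rest on the spread between the 2 arrays of each group, which come from different mice. The LY6D+ and LY6D- libraries of a mouse are not independent, but the SD, SE and p-values count them as if they were. With 2 mice in a gate, the variation from mouse to mouse is poorly measured. The number of arrays limits the precision.

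Macrophages develop from yolk sac, fetal liver and bone marrow precursors under the transcription factor PU.1, which Spi1 encodes, and depend on the growth factor receptor CSF1R for their survival. They engulf dead cells and microbes through scavenger, lectin and Fc receptors, break them down in lysosomes and release complement and enzymes. In tissues such as the prostate, resident macrophages lie in the stroma and next to or within the epithelium. Many of the genes below, such as Ptprc, Lcp1 and Coro1a, are shared with lymphocytes, and Cd68, Ctss, Lgmn and Cd14 can also be expressed by epithelial cells.

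The promoters of members that moved together are shown first, since PU.1 binds a purine-rich motif in the promoters of many myeloid genes. RefSeq promoter windows (build GRCm38.p6) matched 27 of the 38 members by symbol, with 33 windows. The 250 bases before each start were searched for GAGGAA, a core of the PU.1 motif, on both strands (TTCCTC on the strand shown). It was found in 17 of 33 windows (51.5%), against 23.3% of 32851 windows of all genes, and for 15 of 27 genes (55.6%) against 25.9% of 27025. Of the 8 members that passed the test between gates (below), 7 had a window. The 5 whose window held the motif are printed, in the direction of the gene, with the motif in capitals. They are Mrc1 (chr2:14229164-14229413, plus strand), Ctss (chr3:95526536-95526785, plus strand), C1qb (chr4:136886201-136886450, minus strand), Plek (chr11:17008719-17008968, minus strand) and Cd68 (chr11:69666171-69666420, minus strand):
Mrc1: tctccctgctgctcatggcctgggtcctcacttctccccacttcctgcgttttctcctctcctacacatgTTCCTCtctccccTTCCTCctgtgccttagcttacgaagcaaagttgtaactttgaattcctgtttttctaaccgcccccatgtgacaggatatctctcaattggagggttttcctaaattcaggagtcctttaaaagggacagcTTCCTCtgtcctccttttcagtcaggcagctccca
Ctss: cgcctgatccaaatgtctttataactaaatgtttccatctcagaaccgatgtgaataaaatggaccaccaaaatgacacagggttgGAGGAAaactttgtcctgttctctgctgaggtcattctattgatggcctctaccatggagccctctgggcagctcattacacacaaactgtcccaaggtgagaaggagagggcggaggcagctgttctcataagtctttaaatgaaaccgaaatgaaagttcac
C1qb: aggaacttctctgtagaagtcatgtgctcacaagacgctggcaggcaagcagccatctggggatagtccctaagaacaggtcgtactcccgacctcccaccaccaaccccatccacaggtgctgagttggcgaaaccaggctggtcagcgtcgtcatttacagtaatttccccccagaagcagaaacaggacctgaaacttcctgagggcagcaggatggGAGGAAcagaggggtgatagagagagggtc
Plek: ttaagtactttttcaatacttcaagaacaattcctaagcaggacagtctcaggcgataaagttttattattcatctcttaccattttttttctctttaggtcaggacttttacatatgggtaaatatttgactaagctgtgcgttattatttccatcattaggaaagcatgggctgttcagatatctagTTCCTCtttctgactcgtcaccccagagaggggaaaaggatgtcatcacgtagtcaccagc
Cd68: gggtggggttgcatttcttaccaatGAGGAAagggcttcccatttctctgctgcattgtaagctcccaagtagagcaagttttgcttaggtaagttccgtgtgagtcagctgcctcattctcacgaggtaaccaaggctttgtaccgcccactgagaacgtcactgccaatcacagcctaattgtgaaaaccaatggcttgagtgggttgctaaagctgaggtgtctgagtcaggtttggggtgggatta

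The Mrc1 window held 3 matches, the nearest beginning 35 bases before the start, and the others held 1 each, beginning 30 bases before the start in C1qb, 61 in Plek, 164 in Ctss and 225 in Cd68. Mpeg1 and Lcp1 had windows without these letters. A match is a description of the sequence and not a site shown to be bound.

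Some libraries stood apart over all genes. The LY6D+ basal, LY6D- basal and LY6D- luminal libraries of mouse 5 had the smallest numbers of genes above that quartile (18028, 17879 and 17607, against 18555 to 19214 in the other 9). The LY6D+ Sca1-high library of mouse 5 had the lowest median Pearson r with the other arrays over the genes tested (0.807, against 0.826 to 0.868) and low signals of the simple-epithelial keratins Krt8 (6.48, against 8.45 to 10.91 in the other 11) and Krt18 (5.30, against 10.02 to 11.60). In this library the mean over 12 luminal epithelial genes was the lowest, at 6.78, against 7.67 to 9.24 in the other 11. Its mean over 14 endothelial genes was the highest, at 7.21, against 4.18 to 7.03. The part of these lists in the myeloid values was not tested. Values without the libraries that stood apart follow the comparisons of gates and of LY6D. Against the gate labels, the basal keratin Krt14 was 8.04 ± 2.52 in the luminal and 11.25 ± 0.71 in the basal gate (adjusted p = 0.0794, limma) and the secretory gene Pbsn 13.00 ± 0.15 and 9.59 ± 2.03, while Krt8 did not separate them (10.11 ± 0.39 and 10.09 ± 0.88). Of the proteins used for sorting, transcripts are given for LY6D, CD31 and CD49f here and for CD45 below, and not for Sca1. They did not follow the sort in every case. Ly6d was between 4.61 and 7.37 in all 12 libraries, highest in a library labelled LY6D-. Pecam1, which encodes CD31, was 5.18 ± 0.58 in luminal, 8.43 ± 1.22 in Sca1-high and 7.42 ± 1.30 in basal libraries. Itga6 (CD49f) was 6.49 ± 0.48, 6.98 ± 0.76 and 8.47 ± 0.80, and the epithelial gene Epcam 9.74 ± 0.25, 9.13 ± 0.96 and 9.90 ± 0.54.

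Macrophage and myeloid genes were lower in basal than in luminal libraries. Of the 38 members, 8 passed the test at an adjusted p of 0.05, against 0.417% of all genes, all lower in the basal gate: the lysosomal protein Cd68, the platelet and leukocyte signalling protein Plek, the macrophage receptor Adgre1 (F4/80), the pore-forming protein Mpeg1, the mannose receptor Mrc1, the actin-bundling protein Lcp1, the lysosomal protease Ctss and the complement chain C1qb. Their differences ran from -1.61 to -4.26 on the log2 scale, that is, signals 3.06-fold to 19.1-fold lower. Called lower were 21.1% of the members, against 0.278% of all 20135 genes, and no member was called higher, against 0.139% of all genes. All 38 differences were below 0, as were 54.2% of all genes' differences, and their median was -1.34 against -0.03 for all genes. In 24 members (63.2%) every basal library lay below every luminal library, against 3.17% of all genes, and in 0 members every basal library lay above, against 2.58%. At an unadjusted p under 0.05 were 28 members (73.7%), against 9.44% of all genes. As the members were chosen with earlier results known, their shares beside those of all genes describe the list and do not test it. RNA of sorted cells in bulk cannot tell apart fewer cells of a type and less RNA per cell.

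**Figure D1:**
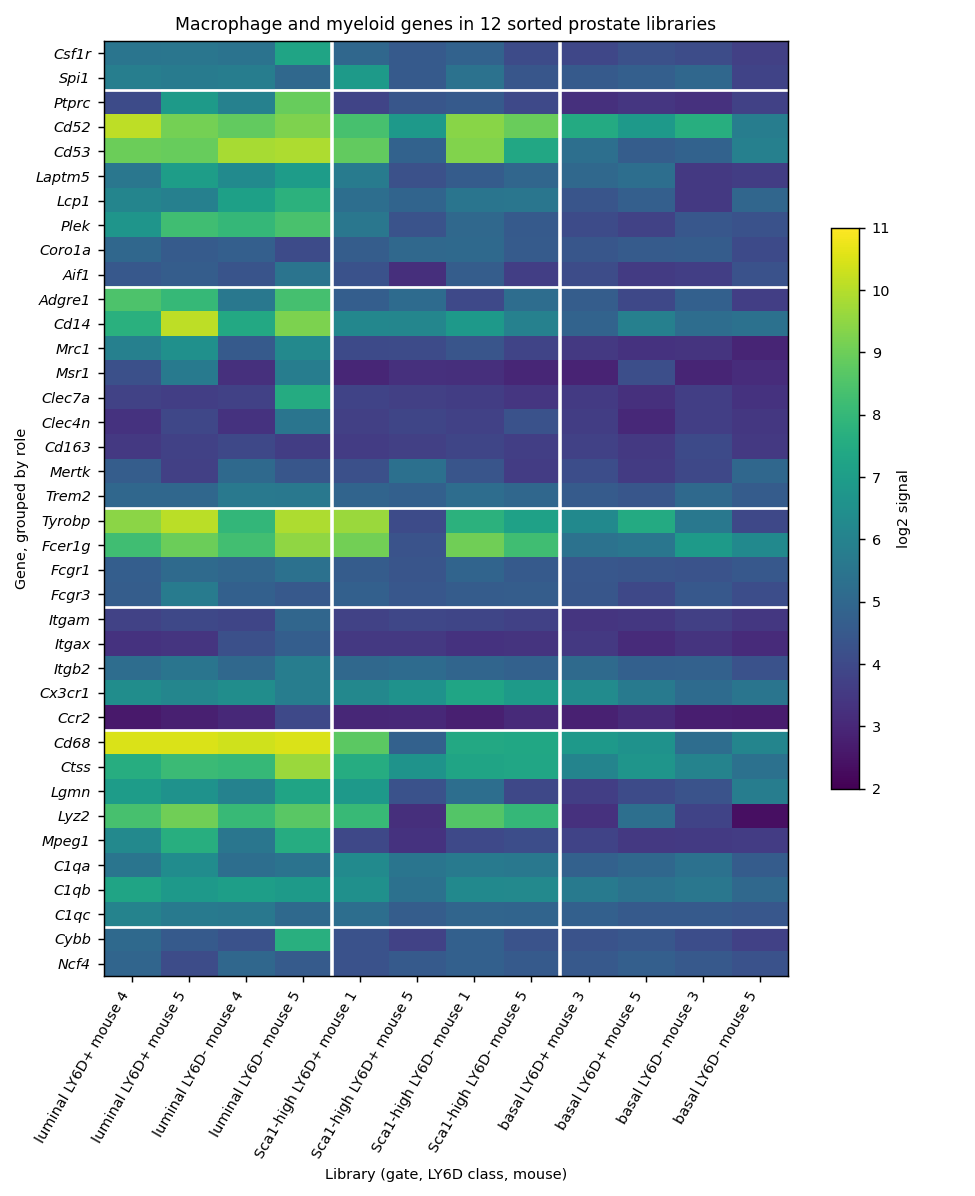
Log2 signal of the 38 macrophage and myeloid genes (rows, grouped by role, white lines between roles) in the 12 libraries (columns, white lines between gates). The colour runs from 2 to 11, and the luminal columns are brighter than the basal columns in most rows, with the LY6D- luminal library of mouse 5 the brightest of its row in 19.

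In what follows the values of a gate are given in a fixed order, LY6D+ then LY6D- libraries, and within each the mouse particular to the gate (4, 1 or 3) before mouse 5. Differences are basal minus luminal or Sca1-high minus luminal on the log2 scale, ± SE, with adjusted p from limma over 20135 genes.

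Among lysosomal and secreted effectors, 4 of 8 members passed the test in the basal gate. Cd68 (probe set 17264835), a lysosomal membrane glycoprotein widely used to mark macrophages, read 10.48, 10.48, 10.36 and 10.50 in the luminal libraries, 8.74, 4.78, 7.42 and 7.35 in the Sca1-high and 6.87, 6.61, 5.22 and 6.09 in the basal libraries. The luminal libraries lay close together, from 10.36 to 10.50, and above all 8 others, and the lowest value was that of the LY6D+ Sca1-high library of mouse 5. The basal minus luminal difference was -4.26 ± 0.68 (adjusted p = 0.0403) and the Sca1-high minus luminal difference -3.38 ± 0.68 (adjusted p = 0.142). Mpeg1 (probe set 17357810), perforin-2 of phagocytes, read 6.23, 7.64, 5.55 and 7.58 in luminal, 3.96, 3.32, 4.00 and 4.11 in Sca1-high and 3.80, 3.51, 3.52 and 3.61 in basal libraries. No luminal library overlapped with the others, and the luminal libraries of mouse 5 were the highest. Its differences were -3.14 ± 0.45 (adjusted p = 0.0273) for basal and -2.90 ± 0.45 (adjusted p = 0.0573) for Sca1-high cells, the latter short of the threshold.

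Ctss (probe set 17400375), the protease cathepsin S that trims the invariant chain of MHC class II, read 7.59, 8.12, 8.01 and 9.65 in luminal, 7.56, 6.61, 7.25 and 7.34 in Sca1-high and 6.08, 6.70, 6.02 and 5.36 in basal libraries. Basal and luminal libraries did not overlap, and the lowest luminal library lay just above the highest Sca1-high library. The basal difference was -2.31 ± 0.39 (adjusted p = 0.0470). C1qb (probe set 17431607), a chain of complement C1q, read 7.26, 6.89, 7.06 and 6.90, then 6.53, 5.37, 6.29 and 6.23 in Sca1-high and 5.67, 5.39, 5.55 and 5.03 in basal libraries. The luminal libraries were above all others, and the basal difference was -1.61 ± 0.27 (adjusted p = 0.0468). The other C1q chains did not pass the test. C1qc (5.60 ± 0.40 luminal, 4.57 ± 0.13 basal, -1.03 ± 0.21, adjusted p = 0.0889) did not overlap between these gates, while C1qa was 5.65 ± 0.50 in luminal, 5.76 ± 0.37 in Sca1-high and 4.94 ± 0.31 in basal cells and its basal and luminal libraries overlapped (-0.70 ± 0.28, adjusted p = 0.454).

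Lyz2, the lysozyme of macrophages and granulocytes, had the largest difference of the 38 and did not pass the test. It read 8.39, 9.06, 8.05 and 8.71 in luminal, 8.07, 3.20, 8.60 and 7.98 in Sca1-high and 3.29, 5.29, 3.81 and 2.38 in basal libraries, with a difference of -4.86 ± 0.93 (adjusted p = 0.0723). Every basal library lay below every luminal one, but the LY6D+ Sca1-high library of mouse 5 lay within the basal range while the other 3 Sca1-high libraries ran from 7.98 to 8.60, next to the luminal ones. Lgmn, the lysosomal asparaginyl endopeptidase, read 6.96, 6.60, 5.98 and 7.26 in luminal and 3.65, 4.05, 4.30 and 5.82 in basal libraries, a difference of -2.25 ± 0.60 (adjusted p = 0.223).

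Of 8 leukocyte membrane and cytoskeletal proteins 2 passed the test, and Plek had the lowest adjusted p of the 38 members. Plek (probe set 17260761), pleckstrin, a substrate of protein kinase C, read 6.68, 8.25, 7.99 and 8.43 in luminal, 5.57, 4.30, 5.03 and 4.56 in Sca1-high and 4.05, 3.78, 4.46 and 4.27 in basal libraries. All luminal libraries lay above all others. It was the only member that passed the test in both gates against luminal cells, at -3.70 ± 0.38 (adjusted p = 0.00924) in basal and -2.97 ± 0.38 (adjusted p = 0.0296) in Sca1-high libraries. In the Sca1-high comparison 0.0993% of all genes were called lower and 0.0397% higher. Lcp1 (probe set 17301968), the leukocyte plastin, read 6.11, 5.94, 7.11 and 7.79 in luminal, 5.26, 4.90, 5.49 and 5.53 in Sca1-high and 4.37, 4.73, 3.49 and 4.99 in basal libraries, with no overlap between luminal and other libraries. Its differences were -2.34 ± 0.32 (adjusted p = 0.0244) and -1.44 ± 0.32 (adjusted p = 0.192).

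The other 6 members of that group did not pass the test against either gate. Ptprc, which encodes CD45, the protein against which cells were sorted, read 4.04, 6.91, 5.97 and 8.90 in luminal, 3.86, 4.41, 4.53 and 3.98 in Sca1-high and 3.25, 3.42, 3.27 and 3.76 in basal libraries. The luminal libraries differed among themselves more than in any other member, from 4.04 to 8.90, although the lowest still lay above all basal libraries. The difference was -3.03 ± 0.71 (adjusted p = 0.149). Cd53, a leukocyte tetraspanin, was 8.97, 8.92, 9.82 and 9.90 in luminal, 8.84, 4.82, 9.29 and 7.40 in Sca1-high and 5.29, 4.65, 4.81 and 5.91 in basal libraries (-4.24 ± 0.77, adjusted p = 0.0638), again with the LY6D+ Sca1-high library of mouse 5 near the basal ones. Cd52, a short GPI-anchored leukocyte protein, was 9.33 ± 0.54 in luminal and 6.95 ± 0.84 in basal libraries (-2.37 ± 0.47, adjusted p = 0.0794) and the lysosomal leukocyte protein Laptm5 6.46 ± 0.69 and 4.35 ± 0.91 (-2.11 ± 0.40, adjusted p = 0.0708). Libraries of both did not overlap. Aif1 (IBA1), an actin-binding protein of macrophages, was 4.73 ± 0.51 and 3.90 ± 0.33 (-0.83 ± 0.36, adjusted p = 0.510), and Coro1a, coronin of leukocytes, 4.59 ± 0.40 and 4.41 ± 0.28 (-0.19 ± 0.24, adjusted p = 0.939).

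**Figure D2:**
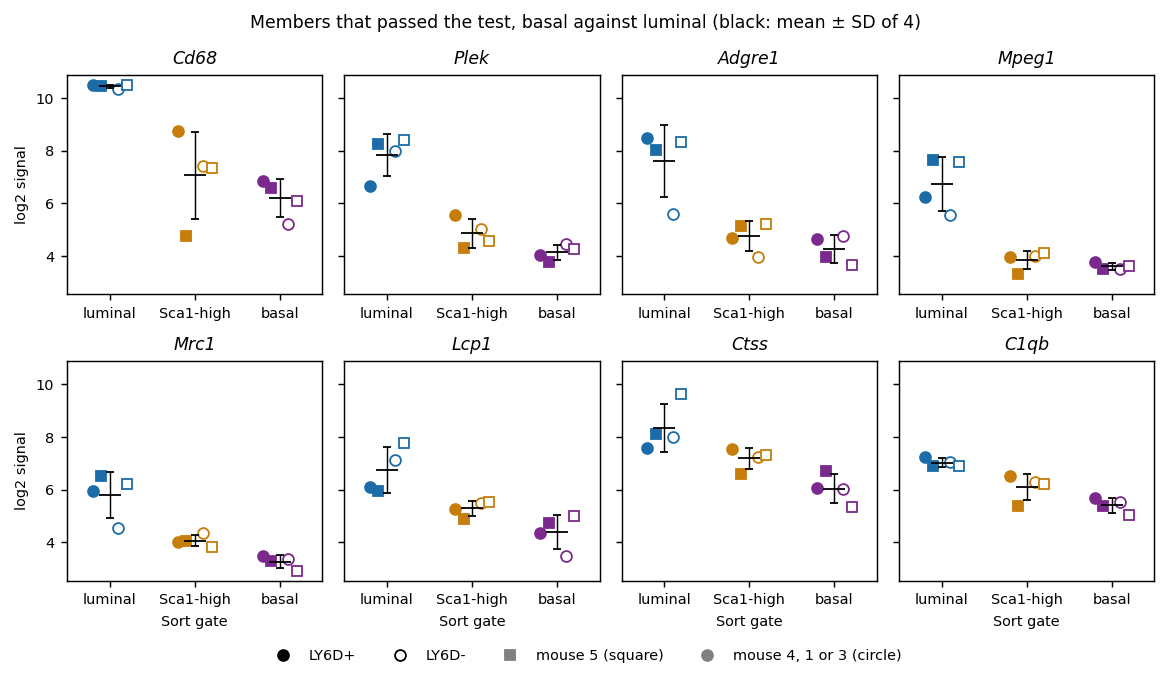
Log2 signal of the 8 members that passed the test between basal and luminal libraries, by gate. Filled points are LY6D+ and open points LY6D- libraries, squares are mouse 5 and circles the gate's other mouse, and black lines give mean ± SD of 4 libraries. In each panel every luminal point lies above every basal point, and the Sca1-high points lie below the luminal ones.

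Of the 9 scavenger, lectin and other recognition receptors, Adgre1 and Mrc1 passed the test. Adgre1 (probe set 17339013), the adhesion receptor recognised by the F4/80 antibody, read 8.50, 8.04, 5.60 and 8.35 in luminal, 4.70, 5.14, 3.98 and 5.21 in Sca1-high and 4.65, 3.96, 4.77 and 3.68 in basal libraries. The LY6D- luminal library of mouse 4 was far below the other 3 luminal libraries, but above every library of the other gates. The differences were -3.36 ± 0.57 (adjusted p = 0.0483) in basal and -2.86 ± 0.57 (adjusted p = 0.138) in Sca1-high cells. Mrc1 (probe set 17367102; CD206) read 5.94, 6.52, 4.55 and 6.23 in luminal, 4.03, 4.06, 4.36 and 3.83 in Sca1-high and 3.49, 3.30, 3.36 and 2.92 in basal libraries, and the same luminal library was the lowest of its gate. All 3 gates were separate, in the order luminal, Sca1-high and basal, with a basal difference of -2.54 ± 0.35 (adjusted p = 0.0244) and a Sca1-high difference of -1.74 ± 0.35 (adjusted p = 0.138). One basal library, at 2.92, was below the filter value of 2.98.

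Cd14, the co-receptor for bacterial lipopolysaccharide, read 7.72, 10.09, 7.44 and 9.23 in luminal, 6.17, 6.11, 6.84 and 5.94 in Sca1-high and 4.85, 5.92, 5.23 and 5.37 in basal libraries. The 3 gates did not overlap, and the basal difference, -3.28 ± 0.56 (adjusted p = 0.0506), lay just outside the threshold. The scavenger receptor Msr1 was above 5 only in the luminal libraries of mouse 5 (4.18, 5.68, 3.24 and 5.82 in luminal, 2.90, 4.16, 2.94 and 3.13 in basal libraries) and was the only member whose Sca1-high mean, 3.10 ± 0.15, was below its basal mean, 3.28 ± 0.59. Clec7a (dectin-1, a receptor for fungal glucans) and Clec4n (dectin-2) stood out in a single library. Clec7a read 3.78, 3.67, 3.73 and 7.53 in the luminal libraries and between 3.25 and 3.82 in the other 8, and Clec4n 3.31, 3.92, 3.33 and 5.49 in the luminal libraries and between 3.05 and 4.25 elsewhere. Trem2, a lipid-sensing receptor, was 5.31 ± 0.36 in luminal and 4.67 ± 0.28 in basal cells (-0.64 ± 0.17, adjusted p = 0.228). Cd163, the haemoglobin scavenger receptor of tissue macrophages, stayed between 3.48 and 4.03 in all 12 libraries (-0.03 ± 0.20, adjusted p = 0.996), and Mertk, a receptor for dying cells, between 3.58 and 5.31 (-0.30 ± 0.38, adjusted p = 0.931).

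None of the 4 Fc receptors and adaptors passed the test, although the basal and luminal libraries of all 4 were separate. Tyrobp (DAP12), the adaptor of TREM2 and other receptors, read 9.44, 10.05, 7.96 and 9.88 in luminal, 9.65, 4.04, 7.78 and 7.13 in Sca1-high and 6.28, 7.52, 5.60 and 3.95 in basal libraries, a basal difference of -3.49 ± 1.05 (adjusted p = 0.278). Fcer1g, the shared gamma chain of Fc receptors, read 8.24, 8.99, 8.29 and 9.52 in luminal, 9.07, 4.30, 9.04 and 8.25 in Sca1-high and 5.40, 5.53, 6.92 and 6.28 in basal libraries (-2.73 ± 0.85, adjusted p = 0.297). For both, the LY6D+ Sca1-high library of mouse 5 was at basal levels or lower (4.04 and 4.30), while the other Sca1-high libraries ran from 7.13 to 9.65. The Fc receptors Fcgr1 (5.03 ± 0.27 luminal, 4.40 ± 0.07 basal, -0.63 ± 0.19, adjusted p = 0.285) and Fcgr3 (4.91 ± 0.57, 4.23 ± 0.24, -0.68 ± 0.26, adjusted p = 0.434) differed less.

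The growth factor receptor and the lineage factor did not pass either. Csf1r read 5.49, 5.53, 5.42 and 7.27 in luminal, 5.01, 4.56, 4.82 and 4.05 in Sca1-high and 3.93, 4.25, 4.10 and 3.72 in basal libraries, with a difference of -1.93 ± 0.38 (adjusted p = 0.0761). The luminal libraries were above all others, and 3 of them lay between 5.42 and 5.53 while the LY6D- library of mouse 5 was 1.74 above the next. Spi1 read 5.84, 5.74, 5.81 and 5.06 in luminal, 6.91, 4.53, 5.40 and 4.40 in Sca1-high and 4.54, 4.71, 4.99 and 3.80 in basal libraries (-1.10 ± 0.51, adjusted p = 0.547). Its highest value was in the LY6D+ Sca1-high library of mouse 1 and, unlike Csf1r, its lowest luminal value was in the LY6D- library of mouse 5.

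Integrins and chemokine receptors and the oxidase subunits had the smallest median differences of the roles, -0.63 and -0.70. The 5 integrins and chemokine receptors had differences between -0.66 and -0.26, none called. Itgam (CD11b) read 3.76, 3.95, 3.87 and 4.99 in luminal and 3.39, 3.45, 3.72 and 3.47 in basal libraries, which did not overlap. Itgax (CD11c), which with Itgam pairs with the beta chain Itgb2, was 3.90 ± 0.67 and 3.27 ± 0.19, and Itgb2 5.39 ± 0.33 and 4.74 ± 0.35. Ccr2, the receptor that draws monocytes out of the blood, was above the lower quartile in 6 of 12 libraries, and its highest value was 3.98, so little can be read from it. Cx3cr1, the fractalkine receptor, had another pattern than most members. It read 6.41, 6.13, 6.42 and 5.81 in luminal, 6.19, 6.59, 7.30 and 6.91 in Sca1-high and 6.33, 5.72, 5.16 and 5.51 in basal libraries, so that its mean was highest in Sca1-high cells, whose libraries overlapped with the luminal ones, with a Sca1-high minus basal difference of 1.07 ± 0.24 (adjusted p = 0.213). Cybb, the membrane subunit of the phagocyte oxidase, was 5.07, 4.56, 4.28 and 7.68 in luminal and 4.30, 4.44, 4.14 and 3.75 in basal libraries (-1.24 ± 0.60, adjusted p = 0.580), and Ncf4, a cytosolic subunit, 4.66 ± 0.41 and 4.50 ± 0.19 (-0.16 ± 0.23, adjusted p = 0.946).

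**Figure D3:**
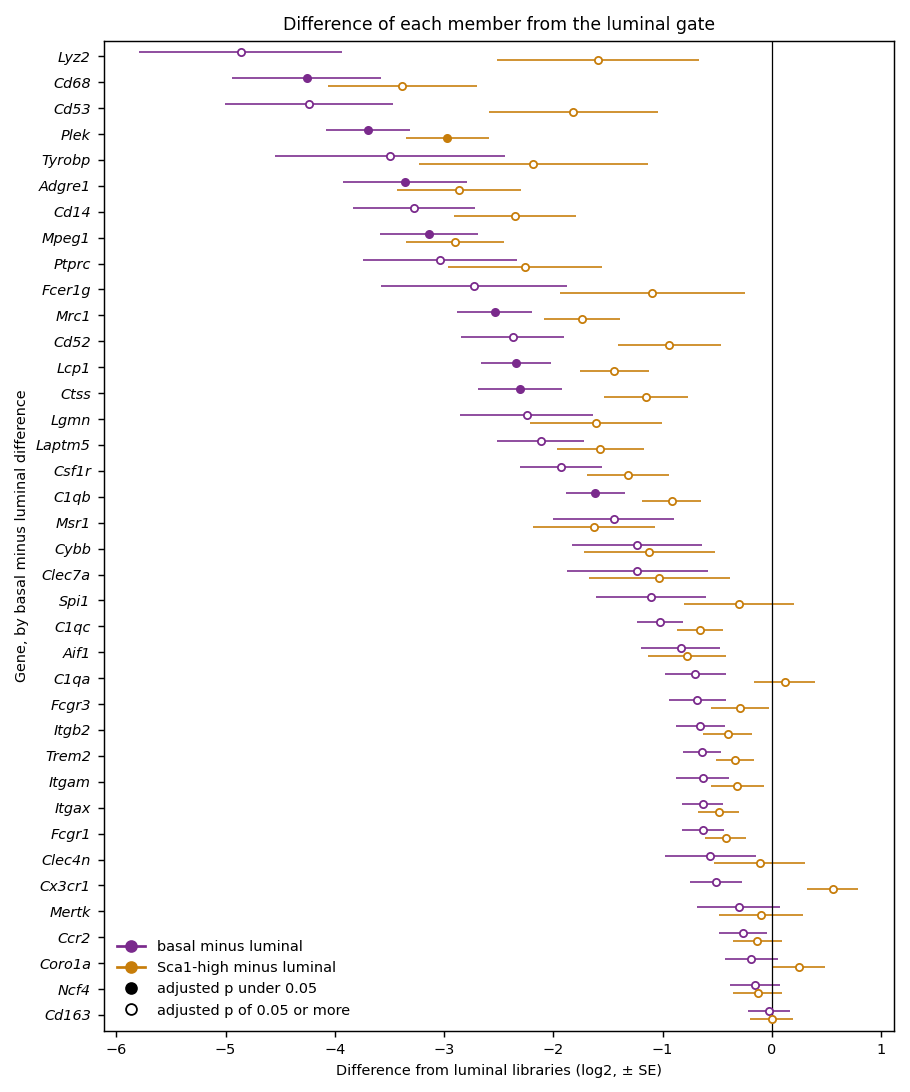
Difference of each of the 38 members from the luminal libraries on the log2 scale, ± SE, for basal (purple) and Sca1-high (orange) libraries, ordered by the basal difference. Filled points have an adjusted p under 0.05. All basal points lie at or left of 0, from -4.86 for Lyz2 to -0.03 for Cd163, and 35 of 38 Sca1-high points lie left of 0.

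The Sca1-high gate lay between the others for most members. The order of gate means was luminal, Sca1-high, basal in 34 members, while C1qa, Cx3cr1 and Coro1a had their highest mean in the Sca1-high gate and Msr1 its lowest. Against luminal cells 35 of 38 differences were below 0 (40.2% of all genes) with a median of -0.98 (0.07 over all genes), 1 member, Plek, was called (0.139% of all genes were, in either direction), and in 10 members (26.3%) every Sca1-high library lay below every luminal one, against 2.48% of all genes. These 10 were Cd68, Adgre1, Mrc1, Ctss, Csf1r, Cd14, C1qb, Mpeg1, Lcp1 and Plek, and their basal libraries lay below the luminal ones too. Both comparisons share the luminal libraries. Against basal cells the Sca1-high libraries were higher in 37 members (35.8% of all genes were lower), with a median of 0.52 (0.11 over all genes), and with limma 0 were called either way, against 0 of all genes higher and 0.00993% lower. At an unadjusted p under 0.05 were 9 of the 38 members, against 1979 of 20135 genes (9.83%). In 6 members (15.8%), namely C1qa, Cd14, Clec4n, Itgam, Mrc1 and Ptprc, the Sca1-high libraries lay above all basal ones, against 4.77% of all genes. The largest Sca1-high minus basal difference was that of Lyz2, 3.27 ± 0.93 (adjusted p = 0.349). Without the LY6D+ Sca1-high library of mouse 5, the Sca1-high libraries were higher than the basal ones in 35 members with a median of 0.58, 0 members were called, and Lyz2 differed by 4.49 (adjusted p = 0.0942). Without the 3 libraries with the fewest genes, 36 members were higher, with a median of 0.41 and 0 called by limma, with 3 of all genes called.

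Within mouse 5, which gave libraries to all gates, the basal minus luminal difference was below 0 in 36 of 38 members. Its median was -2.00, against -0.03 over all genes. Of the libraries used here, the LY6D+ basal, LY6D- basal and LY6D- luminal ones were those with the fewest genes above the quartile. Between mice 3 and 4, where mouse and gate cannot be told apart, the difference was also below 0 in 36 members with a median of -1.11. The Sca1-high minus luminal difference was below 0 in 34 members within mouse 5 (median -1.63, 0.12 over all genes). It was below 0 in 27 between mice 1 and 4 (median -0.34), where mouse and gate again cannot be told apart. With the mouse as a replicate block, which lets mouse 5 alone set the gate differences, 5 members passed the basal comparison, namely Mrc1, Mpeg1 and Plek of the 8 above, and Ptprc (-4.32, adjusted p = 0.0146) and Cd14 (-4.02, adjusted p = 0.0146). This fit called 100 of all genes (0.497%). For Sca1-high against luminal cells 4 passed under the block, Plek, Mpeg1 (-3.89, adjusted p = 0.0229), Ptprc (-3.71, 0.0233) and Cd14 (-3.63, 0.0257), among 104 of all genes (0.517%).

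The calls depended on which libraries were in the fit, both those that stood apart and others. Without the 3 libraries of mouse 5 that had the fewest genes above the quartile, 36 of 38 basal differences were below 0 with a median of -1.12, but none of the 8 members passed the test, with Plek at -3.47 (adjusted p = 0.223), Cd68 at -4.37 (0.444) and Lcp1 at -2.63 (0.0673). That fit called 0 of all genes and left 9 libraries in 6 groups. It also called 0 members and 0 genes between Sca1-high and luminal cells, with 33 members below 0 and a median of -0.76. Without the LY6D+ Sca1-high library of mouse 5, the basal comparison, which does not use its values but shares its spread, called 12 members, adding Fcer1g, Tyrobp, Lyz2, Laptm5 and Cd53 and losing Adgre1. In the Sca1-high comparison without it, Cd68 passed (-2.39, adjusted p = 0.0264), Plek did not (-2.65, 0.0618) and the median went from -0.98 to -0.53. Plek passed the basal comparison without any one of the 12 libraries, while the number of members called ran from 1 to 12. The number of all genes called in the same fits ran from 15 to 255, and the members' share is read beside it. A single member was called without the LY6D+ luminal library of mouse 5 (23 genes in all), the LY6D+ basal library of mouse 3 (15 genes) or that of mouse 5 (41 genes). Without the LY6D- basal library of mouse 5, 2 members were among 21 genes, and without that of mouse 3, 8 were among 187. Without the LY6D- luminal library of mouse 4, 11 were among 255, and without the LY6D+ luminal library of mouse 4 or the LY6D- luminal library of mouse 5, 3 were among 47 and 65. Without either LY6D- Sca1-high library 4 were among 68, and without either LY6D+ Sca1-high library 12 were among 99. The Sca1-high call of Plek held without the LY6D+ or the LY6D- luminal library of mouse 4 or the LY6D+ Sca1-high library of mouse 1 and was lost without each of the other 9 libraries in turn (adjusted p = 0.0566 to 0.112). With each array centred on its median, Plek was the only member among 31 genes called, although 37 of the members' differences stayed below 0.

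One luminal library, the LY6D- library of mouse 5, was above the others in many members. It was the highest of the 12 libraries in 19 of 38 members, against 9.51% of all genes, and in 7 members it lay more than 1 above the next library, by 3.71 in Clec7a, 2.61 in Cybb, 1.98 in Ptprc, 1.74 in Csf1r, 1.53 in Ctss, 1.24 in Clec4n and 1.04 in Itgam. The mean signal over all 38 members was 6.77 there and 5.86 to 6.27 in the other luminal libraries. T and NK cell genes were high in the same library. The mean of 17 such genes was 5.62, against 3.90 to 4.42 in the other luminal libraries and 3.82 to 4.35 in the other 8, with the granzyme genes Gzma at 8.31 and Gzmb at 7.89, the receptor chain Il2rb at 7.55 and the T cell receptor component Cd3e at 7.14. Their part in the myeloid values was not tested. The other 3 luminal libraries remained above the basal range of the mean over members (4.27 to 4.54), which was 4.53 to 5.48 in the Sca1-high gate, while the mean of all genes tested stayed between 4.45 and 4.54 in every library.

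Marker lists of other cell types did not all follow. Neutrophil genes had a mean signal of 3.88 to 4.15 in luminal and 3.88 to 4.16 in basal libraries, with 0 of 13 called (limma) and a median basal minus luminal difference of -0.06. The largest were Lcn2 (7.19 ± 0.84 luminal, 8.72 ± 0.89 basal) and Il1r2 (4.80 ± 1.93, 3.34 ± 0.39), and S100a8, a defining gene, was not above the lower quartile in any library. B cell genes had 0 of 8 called and a median of -0.12, with the largest differences in Cd79a (-0.33 ± 0.26, adjusted p = 0.834) and Cd79b (-0.33 ± 0.29, adjusted p = 0.867). Mast cell genes had a mean signal of 3.85 to 4.16 in luminal and 3.54 to 3.76 in basal libraries, without overlap. These genes had 0 of 6 called, with 4 below 0 and a median of -0.10. Among them Gata2 was 5.93 ± 0.76 in luminal and 4.09 ± 0.20 in basal libraries (-1.85 ± 0.34, adjusted p = 0.0679) and Kit 3.99 ± 0.33 and 4.26 ± 0.46 (0.27 ± 0.21, adjusted p = 0.839), while Mcpt4 and Fcer1a were above the quartile in no library. T and NK cell genes had 0 of 17 called and 15 below 0, median -0.38, with Il2rb (-1.56 ± 0.43, adjusted p = 0.228) and Gzma (-1.49 ± 0.61, adjusted p = 0.475) the largest. Of 13 dendritic cell genes, Cd83, which marks activated antigen-presenting cells, passed the test (6.63 ± 0.61 luminal, 4.77 ± 0.24 basal, -1.86 ± 0.29, adjusted p = 0.0351). In this list 8 genes were below 0 and the median was -0.24. Its mean signal was 4.57 to 5.08 in luminal and 4.26 to 4.50 in basal libraries, without overlap. Endothelial genes had a median of 1.09, with 13 of 14 differences above 0 and 0 called, the largest in Emcn (2.68 ± 0.66, adjusted p = 0.171) and Cdh5 (2.38 ± 0.92, adjusted p = 0.438). Their means were 4.18 to 4.59 in luminal, 5.63 to 7.21 in Sca1-high and 4.24 to 6.69 in basal libraries, of which the LY6D- libraries were at 6.69 and 6.60 and the LY6D+ libraries at 4.24 and 4.46. LY6D+ minus LY6D- in basal cells was below 0 in 14 of 14 of these genes, with a median of -2.31, 0 called by limma and 10 at an unadjusted p under 0.05. Against luminal cells, Emcn and Adgrl4 were called higher in the Sca1-high gate (5.69 ± 0.66, adjusted p = 0.0203 and 5.14 ± 0.74, adjusted p = 0.0469).

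**Figure D4:**
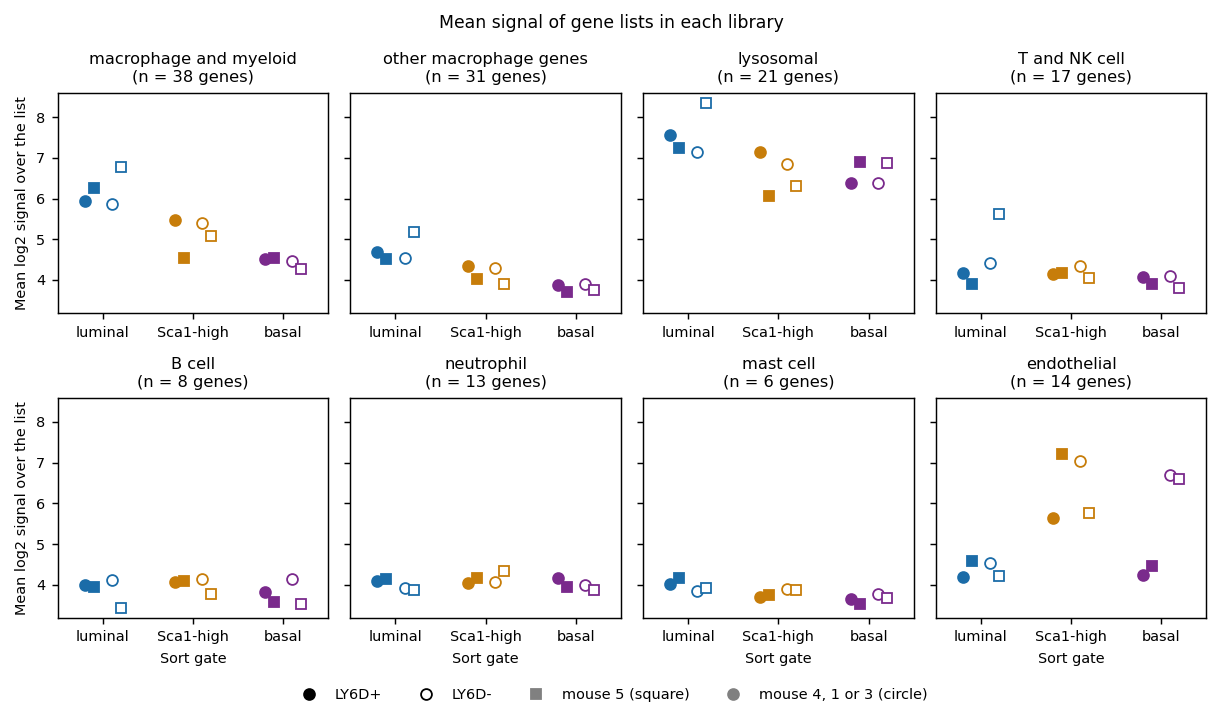
Mean log2 signal over the tested genes of 8 lists in each library, by gate. Filled points are LY6D+ and open points LY6D- libraries, and squares are mouse 5. Macrophage and myeloid genes run from 5.86 to 6.77 in luminal and 4.27 to 4.54 in basal libraries, neutrophil and B cell genes overlap between gates, T and NK cell genes are high in 1 luminal library, and endothelial genes run from 4.18 to 4.59 in luminal and 5.63 to 7.21 in Sca1-high libraries.

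Further macrophage genes were mostly lower in basal libraries too. Of all genes tested, 54.2% had a basal minus luminal difference below 0. Of 34 further macrophage genes, such as Siglec1, Vsig4 and Folr2, 31 were tested, 28 had a difference below 0, with a median of -0.69, and 2 passed the test. They were the chemokine Pf4 (7.51 ± 0.99 luminal, 5.01 ± 0.46 basal, -2.51 ± 0.32, adjusted p = 0.0182) and the membrane protein Ms4a7 (6.90 ± 0.66, 4.20 ± 1.08, -2.70 ± 0.44, adjusted p = 0.0428). The inhibitory receptor gene Lilrb4a had the largest difference of that list, from 9.53 ± 0.36 in luminal to 3.38 ± 0.60 in basal libraries (-6.15 ± 1.15, adjusted p = 0.0679), and did not pass. Of 21 lysosomal genes tested, 18 had a difference below 0, with a median of -1.003 and 0 called, the largest being the lipase Lipa (-2.62 ± 0.70, adjusted p = 0.220) and the carboxypeptidase Ctsa (-2.14 ± 0.51, adjusted p = 0.162). Between Sca1-high and basal libraries the lysosomal genes did not follow the members. There 12 of 21 were lower in Sca1-high libraries, with a median of -0.04, against 1 of 38 members and a median of 0.52. Of 27 myeloid signalling and transcription genes, 20 were below 0 with a median of -0.32 and 0 called, led by Bcl2a1a (-2.09 ± 0.67, adjusted p = 0.321) and the actin regulator Nckap1l (-2.09 ± 0.44, adjusted p = 0.0971). Among fibroblast genes 0 of 10 were called, with Dcn (1.51 ± 0.29, adjusted p = 0.0725) and Thy1 (-1.25 ± 0.53, adjusted p = 0.504) the largest. Among basal epithelial genes the hemidesmosome collagen Col17a1 was called higher in basal libraries (2.14 ± 0.32, adjusted p = 0.0322), and among luminal epithelial genes the peptidase Dpp4 was called lower (-2.22 ± 0.33, adjusted p = 0.0336).

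The members varied together across libraries, to unequal degrees. The Pearson r of a member with the mean of the other members over the 12 arrays had a median of 0.80. It was over 0.7 in 26 members, highest for Ctss at 0.94, and under 0.4 in 5, namely Ncf4 (0.12), Cx3cr1 (0.19), Cd163 (0.03), Coro1a (-0.01) and Mertk (-0.04). Among genes outside the list, the 10 with the highest r with the members' mean were H2-Aa (0.96), H2-Eb1 (0.95), Degs2 (0.95), P2rx7 (0.95), Tcaf3 (0.94), Slamf7 (0.94), H2-Ab1 (0.94), Ccl5 (0.93), Ptafr (0.93) and C3ar1 (0.93), against a median of -0.03 over all other genes. H2-Aa, H2-Eb1 and H2-Ab1 encode MHC class II chains. H2-Aa was 9.54 ± 0.50 in luminal, 7.47 ± 1.01 in Sca1-high and 6.26 ± 0.21 in basal libraries. The points share gates, mice and arrays, so these correlations are descriptions.

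LY6D made no difference that passed the test for any member. In luminal cells, LY6D+ minus LY6D- was below 0 in 21 of 38 members (47.9% of all genes) with a median of -0.22 (0.02 over all genes), and limma called 0 members and 0 of all genes. At an unadjusted p under 0.05 were 4 members (3.56% of all genes), all lower in LY6D+ cells: Itgax (-1.10 ± 0.27, adjusted p = 0.938), Lcp1 (-1.43 ± 0.45, adjusted p = 1.00), Ccr2 (-0.81 ± 0.32, adjusted p = 1.00) and Trem2 (-0.62 ± 0.25, adjusted p = 1.00). Without the LY6D- luminal library of mouse 5 the median was 0.09 with 17 members below 0 (-0.07 over all genes), and without that of mouse 4 it was -0.47 with 29 below 0 (0.16 over all genes), so the side of the median turned on a single library. In Sca1-high cells, 22 were below 0 (54.7% of all genes), with a median of -0.11 (-0.04 over all genes), and 0 members and 0 genes called. Here Cd52 was at an unadjusted p under 0.05 (-1.57 ± 0.67, adjusted p = 1.00), as were 2.41% of all genes. Without the LY6D+ Sca1-high library of mouse 5 the median was 0.10 with 17 below 0, and the differences of Tyrobp and Cd68 went from -0.61 and -0.63 to 2.19 and 1.35 (adjusted p = 1 for both with limma). In basal cells 14 were below 0 (46.6% of all genes), with a median of 0.12 (0.02 over all genes) and 0 members called against 0.00993% of all genes. Here Laptm5 was at an unadjusted p under 0.05 (1.57 ± 0.56, adjusted p = 1.00), as were 2.2% of all genes. Without the 3 libraries of mouse 5 that had the fewest genes, the basal median was -0.01 with 19 below 0. Over the 3 gates limma called 0 genes, with 1 member and 528 genes at an unadjusted p under 0.05. The test of whether the LY6D difference differed between gates called 0 genes in each pair of gates, and the lowest adjusted p of a member was 0.999, with 1 to 4 members and 475 to 587 genes at an unadjusted p under 0.05.

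Within single mice the LY6D differences varied, and whether mice differed was not tested. In luminal cells 9 members were higher and 14 lower in the LY6D+ library of both mice, and 15 went opposite ways. Among those on the same side were Ptprc (-1.93 in mouse 4 and -1.98 in mouse 5), Lcp1 (-1.01 and -1.85), Cd53 (-0.86 and -0.98), Trem2 (-0.66 and -0.58) and Lyz2 (0.34 and 0.35). In Sca1-high cells 6 were higher and 12 lower in both mice, and in basal cells 13 and 10. Such counts over both mice were not made for all genes, so they describe the members only. In luminal cells of mouse 4, 20 members were higher (42.6% of all genes) and 18 lower in the LY6D+ library, with a median of 0.04. In luminal cells of mouse 5, 13 were higher (60.8% of all genes) and 25 lower, with a median of -0.28 where all genes had 0.14. There 10 members were lower by more than 1, against 9.41% of all genes. The largest negative difference was that of Clec7a, at -3.86. Adgre1 went the other way in mouse 4, at 2.91. In Sca1-high cells, 18 were higher in the LY6D+ library of mouse 1 (42.6% of all genes), where Tyrobp differed by 1.87. In that of mouse 5, 14 were higher (49.9% of all genes), and Lyz2 differed by -4.78. In basal cells, 19 were higher in mouse 3 (53.1% of all genes) and 22 in mouse 5 (51.9%). In the latter mouse Tyrobp differed by 3.57 and Lgmn by -1.77. Without the LY6D- luminal library of mouse 4, that of mouse 5 alone stood for its group, and Clec7a differed by -3.81 and Cybb by -2.87. Without that of mouse 5 instead, their differences were -0.01 and 0.54.

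**Figure D5:**
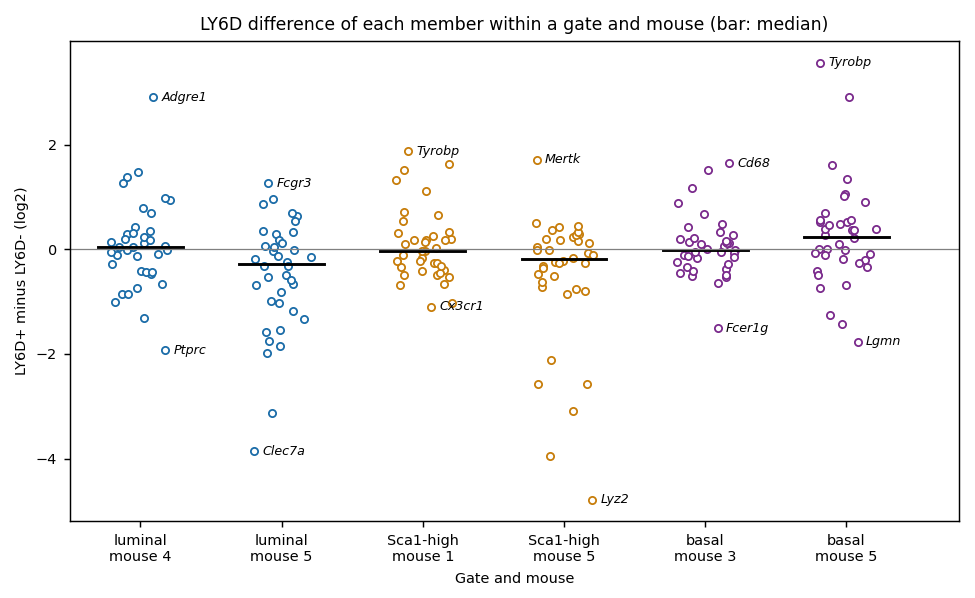
LY6D+ minus LY6D- difference (log2) of each of the 38 members within each gate and mouse, with the median as a black bar and the members with the lowest and the highest difference named. The medians lie between -0.28 and 0.24, and single members reach from -4.78 to 3.57.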

How the data were processed

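Per the labels, column-purified RNA of sorted cells was amplified and biotin-labelled with the NuGEN Ovation V2 kit. Each deposited value is the log2 signal of a probe set. RMA and oligo are named in the submitters' processing notes, without version or parameters, and scanner files and a detection p were not used here. The values (0.695 to 14.3, array medians 3.76 to 3.99) were used as they stand. The 41345 probe sets comprised 23521 with 1 gene symbol, 1814 with more and 16010 without annotation. The brightest single-symbol probe set stood for a gene, and the lower quartile filter left 20135 genes.

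A mean for each of 6 groups was fitted with limma 3.58.1 in R 4.3.3 (6 residual and 3.28 prior degrees of freedom), with a gate as the mean of its LY6D groups and Benjamini-Hochberg adjustment over 20135 genes at 0.05. The fit was run on simulated data with independent noise in each array, which leaves out the sharing of a mouse between libraries. Same-numbered libraries come from the same mouse, per the labels, and their deviations from group means had an r of 0.0220 (luminal), 0.149 (Sca1-high) and 0.407 (basal).

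The members and the other gene lists were chosen with earlier results of these data known. Described are all members, with values per library for those the results turn on, the sort genes Ptprc, Ly6d, Pecam1 and Itga6, and Epcam. Described too are the called or 2 most different genes of each other list, and the 10 genes closest to the members' mean. Alternatives were no filter, arrays centred on their median, the mean of a gene's probe sets, the mouse as a block, only the groups compared, each library left out, the libraries that stood apart left out, and mouse 5 alone.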

Additional observations from a re-analysis of the deposited data

Results flagged for a closer look

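Each of the 38 members and their mean was examined in each of 3 gates. In 6 of these 117 sets of 4 libraries, all 6 of single members, 1 library lay far from the other 3 by Dixon's criterion. Chance gives about 1 in 20, so 6 of 117 is close to what chance alone gives. The 6 are listed as descriptions. In luminal cells, the LY6D- library of mouse 5 was the one in 4 cases. It was high for Csf1r at 7.27 (others 5.42 to 5.53), Itgam at 4.99 (3.76 to 3.95) and Clec7a at 7.53 (3.67 to 3.78), and low for Spi1 at 5.06 (5.74 to 5.84). Adgre1 was low in the LY6D- luminal library of mouse 4, at 5.60 (8.04 to 8.50 in the others). In Sca1-high cells, Lyz2 was low in the LY6D+ library of mouse 5, at 3.20 (7.98 to 8.60).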

How the results depend on the processing

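The basal minus luminal comparison called 84 genes and 8 members, and 31 and 1 with arrays centred on their median, 0 and 0 without the 3 libraries of mouse 5 that stood apart, and 3 and 0 within mouse 5. With the mouse as a replicate block 100 genes and 5 members were called, 3 of these members among the 8. With only the groups compared 77 genes and 6 members were called, again with 3 of these members among the 8. Leaving out 1 library gave 15 to 255 genes and 1 to 12 members. The members' median of -1.34 became -2.00 under the block and within mouse 5, and ran from -2.09 to -1.22 with a library left out. Sca1-high minus luminal called 28 genes and 1 member, and 16 genes with arrays centred, 104 and 4 members under the block, 13 and 0 with only the groups compared, 0 and 0 without the 3 libraries, 13 genes within mouse 5, and 13 to 165 genes and 0 to 7 members with a library left out. Sca1-high minus basal called 2 genes, 1 with mean probe sets, with only the groups compared or within mouse 5, 80 under the block and 2 to 133 with a library left out, and 0 members in all of these.

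LY6D comparisons called 0 genes in luminal cells (1 without the 3 libraries, 0 to 70 with a library left out, with 0 to 2 members), 0 in Sca1-high cells (0 to 17) and 2 in basal cells. The latter were 0 with mean probe sets, under the block, with only the groups compared or without the 3 libraries, and 0 to 3 with a library left out. Over the gates 0 genes were called (0 to 2), and for differences between gates 0 (0 to 7, 0 to 11 and 0 to 14). The causes were not tested.

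Of single members' values under the alternatives, 97 lost and 37 gained a call and 4730 did neither. No called difference changed direction, and 227 differences that were called under neither setting did, none larger than 2.19. The 2 of these over 1 were Tyrobp (2.19) and Cd68 (1.35), LY6D+ minus LY6D- in Sca1-high cells without the LY6D+ library of mouse 5. Leaving out a library of the gate not compared changes only the shared spread, and the lone library of a group is then taken to vary like the others. Members near the lower quartile, such as Ccr2, are measured least well.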
